A study of Rattus norvegicus with 6 samples.

Results

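The genes described here encode the parts of the Wnt signalling system that act at or near the cell surface, together with the first steps inside the cell. They are the secreted Wnt ligands, the Frizzled (Fzd) receptors, the co-receptors Lrp5, Lrp6, Ror1 and Ror2, and Kremen1, a receptor for Dkk proteins. Further members are the R-spondins (Rspo), their Lgr receptors, and the secreted antagonists of the Sfrp, Dkk and Wif1 types. The last are Axin1, Axin2, Ctnnb1, Lef1 and Tcf7 of the β-catenin arm. Members were taken by symbol, as every row of the table that the array annotation pairs with 1 such symbol, where a family name is followed by digits and, where present, a letter. This gave 50 genes among the 14506 that have a row of their own, and each of the 50 had a single row.

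The cells were extracted from long bone of Sprague Dawley rats at an age of 2 to 5 days, and were left to attach to plates coated with prothrombin (PT) from mouse, the precursor of the clotting protease thrombin, or with osteopontin (OPN) from bovine milk, a phosphoprotein of bone matrix. All animals were of that strain, and apart from the coating no treatment or genotype is given. RNA of the attached cells was measured on Affymetrix Rat Gene 1.0 ST arrays, 3 for PT (replicates 1, 2 and 4) and 3 for OPN (replicates 2, 3 and 4). Whether the replicates are separate preparations is not in the labels, and the spread that the p-values rest on may therefore be technical. The cells attached to each coating were a mixture, and in RNA of a whole mixture fewer cells of a type cannot be told apart from less RNA per cell.

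Wnt ligands bind Frizzled receptors and the co-receptors Lrp5 or Lrp6. In the canonical branch this stops the Axin complex from degrading β-catenin, the product of Ctnnb1, which then acts in the nucleus with Lef1 and Tcf7. R-spondins, bound by Lgr receptors, raise the number of receptors at the cell surface. The antagonists either bind the ligand (Sfrp proteins, Frzb and Wif1) or the co-receptor (Dkk proteins such as Dkk1, with Kremen1). In bone the pathway drives osteoblast formation, and Lrp5 and the antagonists are known regulators of bone mass.

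Values are linear signals in units of the PLIER summary of each probe set, and signals on PT and OPN are given below in the replicate order above. Differences are OPN minus PT on the scale log2(signal + 16), and folds are taken from them. Rose and fell are used for an adjusted p below 0.05 in limma's test over all 29215 rows (Benjamini-Hochberg). The array medians lay between 207.8 and 231.4 units, lowest on PT replicate 2, and arrays of the same coating correlated at 0.988 or more against at most 0.979 across the 2 coatings. Detection calls were not used, and with 6 arrays the precision is limited.

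Of the 50 members, 10 rose on OPN and 0 fell. A rise was called for 7.62% of all named genes and 5.05% of all rows, a fall for 1.12% and 0.77%, and either for 8.73% and 5.82%. Among the 16 members below 0, 0 had an unadjusted p under 0.05 in limma's test, which was the only test used for calls. The members that rose were Lgr4, Ctnnb1, Wif1, Sfrp1, Fzd8, Wnt5a, Rspo3, Lrp5, Frzb and Tcf7, in order of their difference from 1.27 down to 0.41. Every group except the Dkk genes held at least 1 of them, and only Lgr4 and Ctnnb1 exceeded a doubling. The median difference was 0.13 over the members and 0.04 over all named genes. The PT and OPN arrays did not overlap in 25 members, which is 50% of them, against 30.4% of named genes and 23.7% of all rows. All 25 were higher on OPN, as were 3138 of the 4410 named genes without overlap. Overlap was read from the deposited signals and not repeated with another scaling. With the array medians made equal, or with quantile normalisation, the same 10 members were called and 0 were lower, while the medians moved to 0.06 and 0.07 over the members and from 0.03 to -0.04 and -0.03 over all rows. Over all rows, 86.8% of the calls were higher on OPN, against 68.1% and 64.6% with those scalings.

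**Figure D1:**
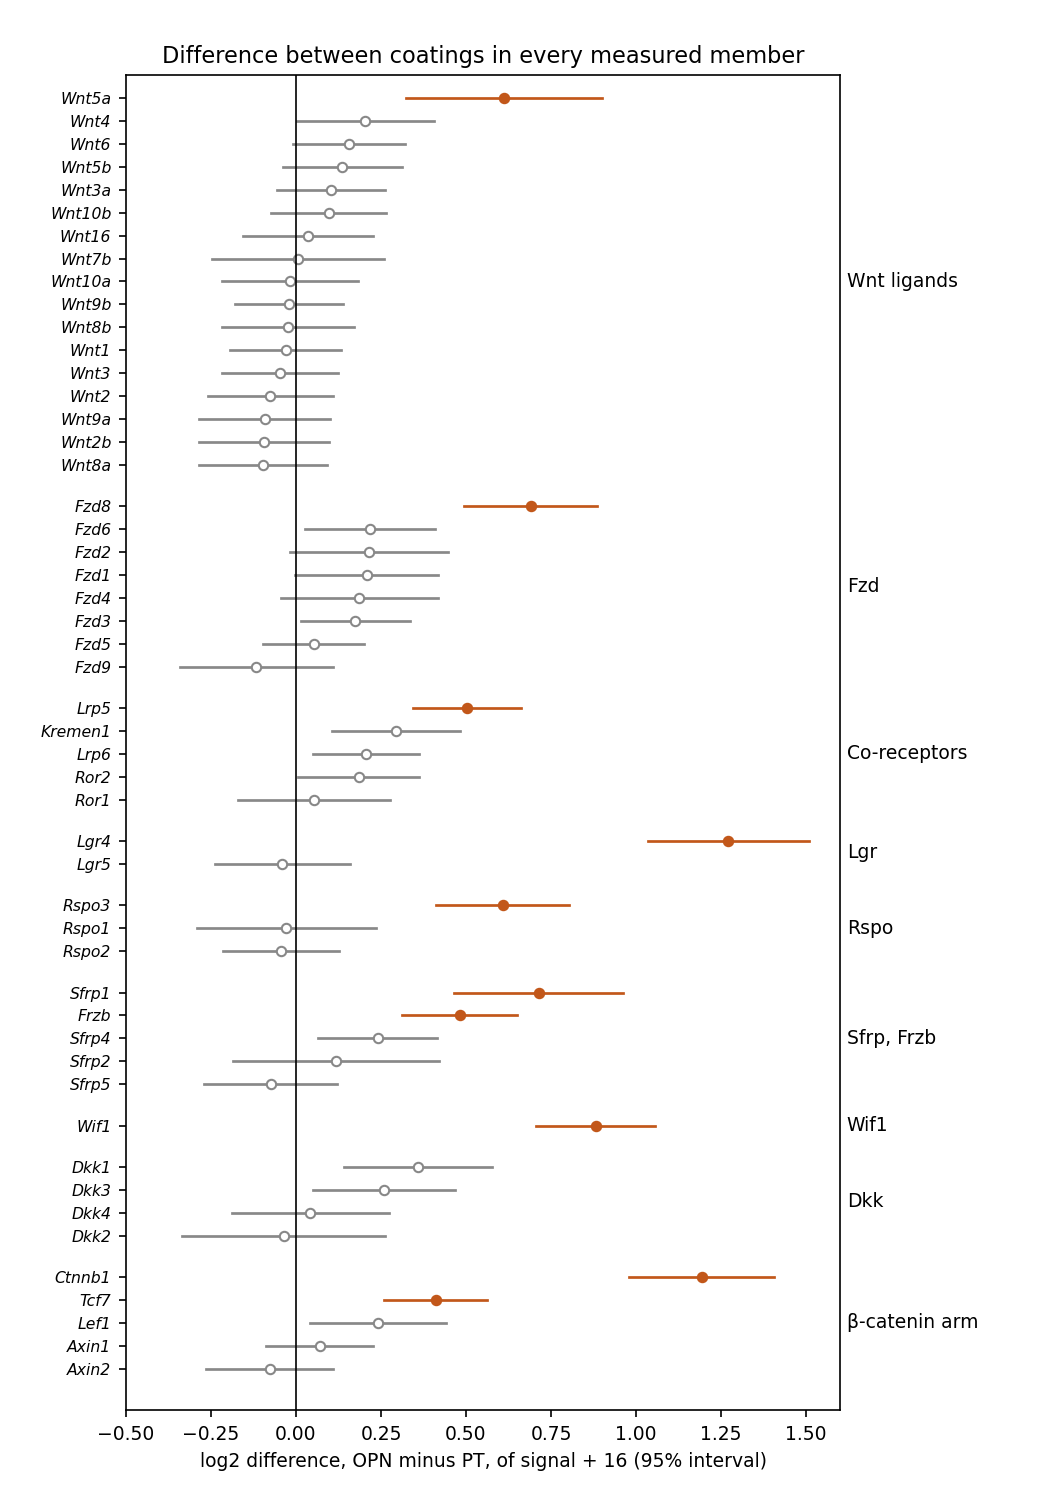
Difference between coatings for all 50 members, grouped by role: x axis, OPN minus PT on the scale log2(signal + 16); points, estimates from limma over 3 arrays per coating; lines, 95% intervals; filled orange, adjusted p below 0.05; open grey, not called. The 10 filled points all lie to the right of 0, from 0.41 for Tcf7 to 1.27 for Lgr4. Kremen1 is drawn with the co-receptors.

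**Figure D2:**
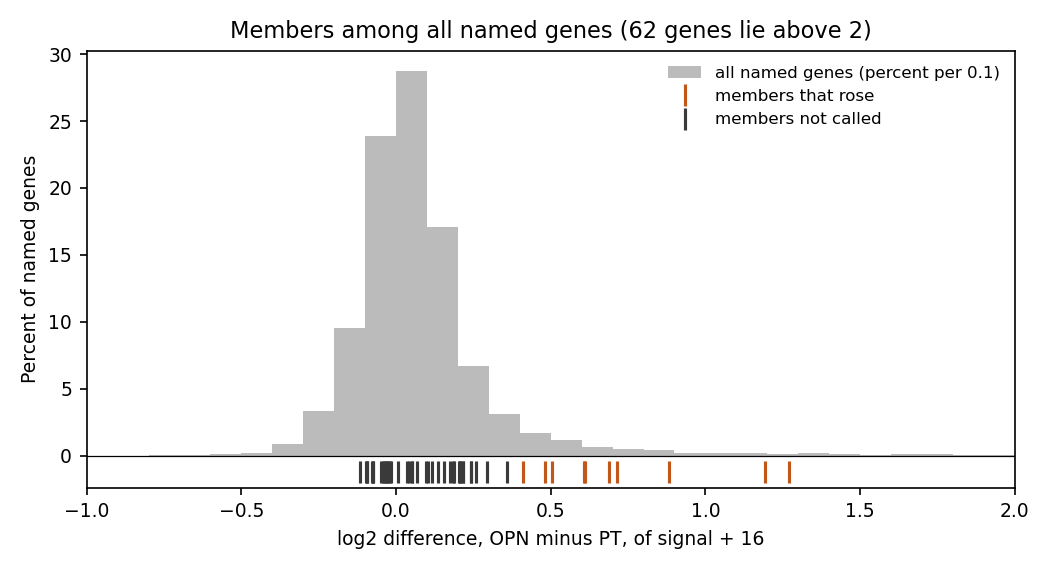
Members set against all 14506 named genes: grey bars, percent of named genes per 0.1 of OPN minus PT difference on the scale log2(signal + 16); ticks under the axis, members that rose (orange) and members not called (black). The tallest bars stand beside 0, most uncalled members lie under them, and 62 named genes with differences above 2 fall outside the plot.

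Markers of several cell types of bone moved on the same arrays. Of 15 measured osteoblast markers 14 rose, and their summed signal was between 11645 and 12649 units on PT and between 58245 and 65070.1 on OPN. Of 13 stromal fibroblast markers 11 rose (2834 to 3067 units on PT, 9339.8 to 10196 on OPN), and of 11 endothelial markers 9 rose (2082 to 2227 on PT, 3285 to 3467 on OPN). Of 9 osteoclast markers 8 rose (3652 to 3909 on PT, 21714 to 24447 on OPN), while of 13 macrophage markers 8 fell (14451 to 15184 on PT, 10374 to 11124 on OPN). Of 6 osteocyte markers 4 rose (1179 to 1364 on PT, 2976 to 3175 on OPN). Phex, Dmp1 and Mepe, which rose, also stand in the osteoblast list, while Sost (-0.01) and Fgf23 (0.06) were not called. Of 6 megakaryocyte and platelet markers 6 rose (2224 to 2368 on PT, 3829 to 4171 on OPN). Of 8 pericyte or smooth muscle markers 3 rose (7518 to 8181 on PT, 8336 to 8931 on OPN). Most of that last signal was Acta2 (6058 to 6785 on PT, 6550 to 7021 on OPN), which was not called (0.06). Of 7 erythroid markers 2 fell and all 7 were below 0 (55892 to 63256 on PT, 51412 to 55534 on OPN). Of 11 chondrocyte markers 1 rose and 1 fell, and of 8 adipocyte markers 1 rose. Of 10 granulocyte and 4 B cell markers 0 were called, although all 10 granulocyte markers were above 0 (median 0.17). In each of these lists 0 markers were below 1 unit on all arrays, and every member difference given below stands beside these shifts, whose part in it was not tested.

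Promoters are shown for 2 members that rose and for 2 feedback inhibitors that did not pass. The inhibitors were taken because their promoters hold CTTTGA, a form of the core letters bound by Lef1 and Tcf7 proteins. The 4 were picked with their values known, so the contrast between them in these letters follows from the choice. The sequences are the 250 bases before the annotated start of each gene, from RefSeq on build GRCr8, read 5′ to 3′ on the strand of the gene. Lgr4 lies at chr3:116901718-116901967 and Wif1 at chr7:58433329-58433578, both on the plus strand. Axin2 lies at chr10:94398535-94398784 on the plus strand and Dkk1 at chr1:237798651-237798900 on the minus strand. Capitals mark CTTTGA or, on the other strand, its complement TCAAAG. Only these 6 letters were searched, so other forms of the core are neither marked nor counted.
Lgr4: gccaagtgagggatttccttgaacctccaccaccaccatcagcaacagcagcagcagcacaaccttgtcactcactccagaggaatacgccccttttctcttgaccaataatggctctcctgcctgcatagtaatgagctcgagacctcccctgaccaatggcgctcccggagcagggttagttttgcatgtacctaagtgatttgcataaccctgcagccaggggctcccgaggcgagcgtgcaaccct
Wif1: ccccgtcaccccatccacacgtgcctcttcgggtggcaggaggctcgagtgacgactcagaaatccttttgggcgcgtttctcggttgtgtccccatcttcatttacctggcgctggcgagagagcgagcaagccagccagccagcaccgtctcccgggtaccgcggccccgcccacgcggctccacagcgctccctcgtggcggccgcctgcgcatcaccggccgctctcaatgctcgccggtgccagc
Axin2: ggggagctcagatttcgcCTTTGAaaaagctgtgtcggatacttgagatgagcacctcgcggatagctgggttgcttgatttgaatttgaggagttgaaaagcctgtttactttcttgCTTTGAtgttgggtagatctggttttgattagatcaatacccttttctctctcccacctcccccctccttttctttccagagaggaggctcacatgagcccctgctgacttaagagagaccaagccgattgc
Dkk1: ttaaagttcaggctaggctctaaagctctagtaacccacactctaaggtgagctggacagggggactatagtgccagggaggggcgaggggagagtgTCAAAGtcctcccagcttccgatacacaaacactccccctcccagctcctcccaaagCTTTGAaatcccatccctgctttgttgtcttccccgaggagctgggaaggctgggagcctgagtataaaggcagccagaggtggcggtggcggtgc
The letters occur 2 times in the Axin2 window, with first bases 232 and 132 bases before the start, and 2 times in the Dkk1 window, at 153 and 96. A match was found in 3 of the 33 members with a promoter in the table used, the third being Wnt8a, and in 13.9% of all 33469 promoters of that length. Of the 10 members that rose, 8 had a promoter in the table and 0 of these held the letters. A match describes letters in this window and is not a binding site.

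Among the ligands, Wnt5a rose. Wnt5a, a ligand best known for β-catenin-independent signalling and made by cells of the osteoblast lineage, had signals of 149, 101 and 144 units on PT and 211, 204 and 204 on OPN. The OPN arrays lay close together, whereas PT replicate 2 lay well below the other two PT arrays. The difference was 0.61 (SE 0.13, 1.53-fold, adjusted p = 0.0251). This was the weakest call of the 10, lost without OPN replicate 2, OPN replicate 3 or OPN replicate 4 (adjusted p = 0.0868, 0.0876 and 0.0792) and kept at 0.45 without PT replicate 2 (adjusted p = 0.0139).

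The other 16 ligand genes of 17 measured were not called. Wnt4 had the highest value among them, with 150.4, 149 and 148 units on PT and 175, 154 and 195 on OPN (difference 0.20, SE 0.09, adjusted p = 0.277). Wnt6 (0.15), Wnt3a (0.10) and Wnt10b (0.10), ligands of the canonical branch in bone and other tissues, also had OPN arrays that stayed above the PT arrays. Wnt5b, the closest relative of Wnt5a, had 0.14 with overlapping arrays, and Wnt16, a ligand of cortical bone, had 0.04. The lowest value was that of Wnt8a, with 244, 232 and 206 units on PT and 217, 217 and 199 on OPN (-0.10, SE 0.08). Wnt2b (-0.10), Wnt9a (-0.09), Wnt2 (-0.08), Wnt3 (-0.05), Wnt1 (-0.03), Wnt8b (-0.02), Wnt9b (-0.02), Wnt10a (-0.02) and Wnt7b (0.01) were the remaining ligands measured. The median of the 17 was -0.02. The coatings did not overlap in 5 of the 17 ligands (29.4%, against 30.4% of named genes). All 5 were higher on OPN, as were 3138 of the 4410 named genes without overlap. Both alternative scalings put Wnt16 and Wnt7b below 0.

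Of the 8 Frizzled receptors measured, Fzd8 rose. Its signals were 190.2, 195 and 210.1 units on PT and 321, 305 and 365 on OPN, a difference of 0.69 (SE 0.08, 1.61-fold, adjusted p = 0.00161). Every OPN array was well above the highest PT array. Fzd6 (0.22), Fzd2 (0.22), Fzd1 (0.21), Fzd4 (0.19), Fzd3 (0.17) and Fzd5 (0.05) lay above 0 without a call, although both scalings put Fzd5 below 0, and Fzd9, a receptor studied in osteoblasts, lay below it (-0.12, SE 0.10). Fzd3, Fzd4 and Fzd6 had no overlap between coatings, and Fzd6 for example had 111, 88.9 and 101 units on PT and 122, 117 and 118 on OPN. Fzd2 was called without PT replicate 1 (0.33, adjusted p = 0.0459).

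The co-receptors and Kremen1 were all above 0, except that Ror1 turned below it with either scaling, and 1 of these 5 genes passed. Lrp5, the LDL-receptor-related protein known for its effect on bone mass, had 198, 186 and 182 units on PT and 265, 285 and 272 on OPN. Its difference was 0.50 (SE 0.07, 1.42-fold, adjusted p = 0.00295), and the spread within each coating was small beside it. Lrp6, which acts alongside Lrp5 as a Wnt co-receptor, had 476, 484 and 495 units on PT and 537, 587 and 563 on OPN. The Lrp6 arrays did not overlap either, but its difference of 0.21 (SE 0.07) did not pass (adjusted p = 0.146). Kremen1, a receptor through which Dkk proteins act, had 165, 147 and 157 units on PT and 188, 215 and 184 on OPN (0.29, SE 0.08, adjusted p = 0.0872). The receptor tyrosine kinases of Wnt5a signalling had 0.18 for Ror2, without overlap, and 0.05 for Ror1, with overlap (adjusted p = 0.263 and 0.855).

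Lgr4 gave the largest difference of the 50 members. Lgr4, a receptor for R-spondins, had 163, 124 and 151 units on PT and 386, 394 and 342 on OPN, a difference of 1.27 (SE 0.10, 2.41-fold, adjusted p = 0.000137). The lowest OPN array was more than double the highest PT array. Lgr5, its relative that marks stem cells of gut epithelium, had 139.6, 118 and 137 units on PT and 127, 136 and 117 on OPN (-0.04, SE 0.09). Those arrays overlapped throughout, and 95% limits of -0.24 and 0.16 bound the difference.

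Of the 3 R-spondins measured, Rspo3 rose. It had 111, 92.0 and 109.99 units on PT and 173, 157 and 171 on OPN, a difference of 0.61 (SE 0.09, 1.52-fold, adjusted p = 0.00349). Its OPN arrays lay close together and apart from PT. Rspo1 (-0.03, SE 0.11) and Rspo2 (-0.04, SE 0.07) had overlapping arrays.

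Secreted antagonists that bind Wnt ligands rose in 3 of 6 cases. Wif1, the Wnt inhibitory factor, had 209, 181 and 188 units on PT and 363, 358 and 382 on OPN. Its difference was 0.88 (SE 0.08, 1.84-fold, adjusted p = 0.000197), and its OPN arrays were tightly grouped. Sfrp1, a secreted Frizzled-related protein that limits bone formation in mice, had 93.4, 77.3 and 95.3 units on PT and 157, 135 and 176 on OPN (0.71, SE 0.11, 1.64-fold, adjusted p = 0.00507). Its signal was dim, and the spread was wider than for Wif1, but the coatings stayed apart. Frzb, another protein of this type first found in cartilage, had 175, 155 and 157 units on PT and 237, 237 and 223 on OPN (0.48, SE 0.07, 1.40-fold, adjusted p = 0.00539). Sfrp4, also linked to bone mass, had 241, 276 and 274 units on PT and 307, 326 and 309.7 on OPN (0.24, SE 0.08, adjusted p = 0.130). It passed with rows below the median row left out before the fit (adjusted p = 0.0403). Sfrp2 (0.12, SE 0.13) and Sfrp5 (-0.07, SE 0.09) overlapped between coatings.

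None of the 4 Dkk genes was called. Dkk1, an inhibitor of Lrp5 and Lrp6 made by osteoblasts and osteocytes, came closest, with 123, 134 and 121 units on PT and 192, 153 and 155 on OPN (0.36, SE 0.10, adjusted p = 0.0736). All OPN arrays were above the PT arrays, OPN replicate 2 the most. Dkk3 showed the same order, with 159, 167 and 176 units on PT and 231, 185 and 197 on OPN (0.26, SE 0.09, adjusted p = 0.177). Dkk4 (0.04, SE 0.10, and below 0 with either scaling) and Dkk2 (-0.04, SE 0.13) overlapped, and Dkk2 was among the dimmest members, between 75.3 and 109.7 units.

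**Figure D3:**
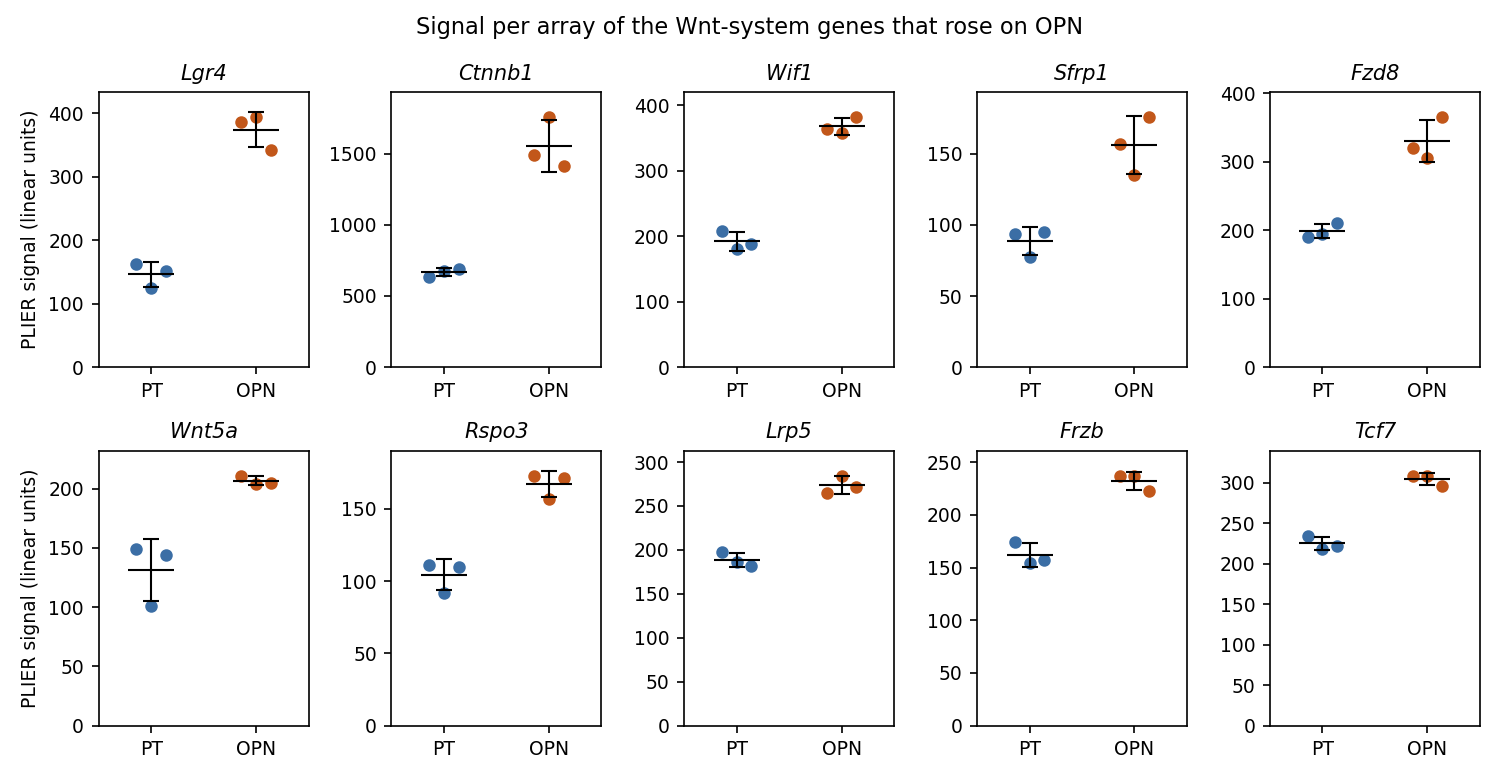
Signal of the 10 members that rose, 1 panel per gene: y axis, linear PLIER signal from 0; points, single arrays (3 PT in blue, 3 OPN in orange); horizontal bar and whiskers, mean and SD. In every panel the OPN points lie above all PT points. PT replicate 2, the middle PT point, is the lowest for Wnt5a at 101 units, and also for Lgr4, Wif1, Sfrp1, Rspo3, Frzb and Tcf7.

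Inside the cell, Ctnnb1 rose and the Axin genes were not called. Ctnnb1, which encodes β-catenin, also a structural part of cadherin junctions, had 635, 674 and 692 units on PT and 1489, 1756 and 1409 on OPN. Its difference of 1.19 (SE 0.09, 2.29-fold) had the smallest adjusted p of the members (0.000109). Tcf7, a nuclear partner of β-catenin that is also known from T cells, had 234, 219 and 222 units on PT and 309, 309 and 296 on OPN (0.41, SE 0.07, 1.33-fold, adjusted p = 0.00715). Of 8 measured T cell markers 0 rose and 1 fell, Cd4 (-0.41), which macrophages of the rat also carry. Lef1, the relative of Tcf7, had 287, 305 and 345 units on PT and 363, 397 and 354 on OPN, without overlap (0.24, SE 0.09, adjusted p = 0.185).

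Axin2, a feedback inhibitor that β-catenin itself switches on and that is widely used as a readout of the canonical branch, had 302, 281 and 273 units on PT and 271, 292 and 247 on OPN. The arrays overlapped, and the difference of -0.08 (SE 0.08, adjusted p = 0.717) had 95% limits of -0.26 and 0.11. Axin1, the constantly made scaffold of the same complex, had 447, 445 and 440.5 units on PT and 451, 496 and 455 on OPN (0.07, SE 0.07, adjusted p = 0.697, and below 0 with quantile normalisation).

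Over the 40 members not called, the 95% limits ran from -0.34 for Fzd9 to 0.58 for Dkk1. In 15 of these 40 the coatings did not overlap, and 10 had an unadjusted p below 0.05 in limma's test, against 3143 and 1988 of the 13239 named genes not called. Members at or above the median row of the table (221.6 units) were called in 6 of 30 cases and dimmer ones in 4 of 20, against 12.1% and 4.45% of all named genes in the same ranges.

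Of the 10 members that rose, 8 were set against a near relative, in pairs chosen after their values were seen, and Ctnnb1 and Wif1 were not paired. The ratio of the relatives was taken per array, so that the value is the difference between their OPN minus PT differences. Lgr4 exceeded Lgr5 by 1.31 (SE 0.04), Sfrp1 exceeded Sfrp5 by 0.79 (SE 0.15), Rspo3 exceeded Rspo2 by 0.65 (SE 0.13) and Fzd8 exceeded Fzd5 by 0.64 (SE 0.07). Wnt5a exceeded Wnt5b by 0.47 (SE 0.15) and Lrp5 exceeded Lrp6 by 0.30 (SE 0.05). In these 6 pairs the ratios did not overlap between coatings. An exact permutation test, two-sided, reached p = 0.1 there, the smallest value that 3 against 3 arrays allow. After Benjamini-Hochberg adjustment over the 8 pairs it was 0.133. The first gene of each pair was taken because it rose on these arrays, so the direction of the excess follows in part from that choice. These p-values therefore cannot decide whether the relatives differ. Frzb against Sfrp4 (0.24, SE 0.11) and Tcf7 against Lef1 (0.17, SE 0.10) had overlapping ratios (exact permutation p = 0.3 and 0.2, adjusted 0.3 and 0.229).

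The remaining genes of the pathway were read from 6 lists, chosen with earlier results of these data known. Beside the counts of each list, a rise was called for 7.62% of all named genes. Ligand handling and other secreted or surface proteins rose in 6 and fell in 0 of 13 measured genes (median 0.27). Cthrc1, a secreted protein that assists Wnt and Ror2 binding, had between 51.1 and 79.8 units on PT and 657, 661 and 620.2 on OPN (3.05, SE 0.12). Serpinf1 (2.77, SE 0.09), a secreted serpin reported to bind Lrp6, the glypican gene Gpc4 (1.20, SE 0.09) and Wls (0.90, SE 0.08), which carries Wnt ligands to the cell surface, also rose. Wls had 363, 363 and 397 units on PT and 743, 748 and 646 on OPN (adjusted p = 0.000289). Porcn, the enzyme that attaches the lipid of Wnt ligands, had 0.14, and Sost, the gene of the Lrp5 and Lrp6 inhibitor sclerostin, had -0.01, both without a call.

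Among 10 other receptor and turnover genes 4 rose, 0 fell and the median was 0.23. The pseudokinase receptors Ptk7 (1.04, SE 0.10) and Ryk (0.59, SE 0.09) were joined by Lrp4 (0.55, SE 0.08), which holds sclerostin in bone, and by the polarity gene Prickle1 (0.51, SE 0.08). Rnf43, a ligase that removes Frizzled receptors and that R-spondins restrain, had -0.10 without a call.

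Of 26 measured genes of the β-catenin branch, Cav1 (0.70, SE 0.10), a caveola protein shared with endothelial cells, rose and Btrc (-0.33, SE 0.07), which marks β-catenin for degradation, fell. Either call was made for 8.73% of all named genes. The call of Btrc was lost when any array other than PT replicate 1 was left out. The kinase gene Gsk3b (-0.04) and the scaffold gene Apc (0.05) were not called, and the median was 0.08. Of 16 nuclear partners, the co-repressor gene Tle1 (0.38, SE 0.09) rose, 0 fell and the median was 0.05. Tle1 was not called with the array medians made equal, with an intensity trend in the prior, or without any array other than PT replicate 1. Sox17, a gene of endothelial cells, had 0.52 and was called only without PT replicate 4. Of 20 genes of the β-catenin-independent branch, the kinase gene Prkca (0.40, SE 0.08) and the phospholipase gene Plcb4 (0.32, SE 0.07) rose, 0 fell and the median was 0.10. Both calls were lost whenever an array other than PT replicate 1 was left out, and that of Plcb4 also with the array medians made equal.

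Genes known as β-catenin targets in some tissue rose in 14 of 29 cases and fell in 0, with a median of 0.31. A rise was called for 7.62% of all named genes. The feedback inhibitors Axin2 (-0.08) and Dkk1 (0.36) are not among these 29 genes, and neither was called. The count of targets that rose was 12 with either scaling, where Ccnd1 and Irx3 were lost. It was between 11 and 13 with 1 array left out. The connexin gene Gja1 (3.63, SE 0.09) had the largest difference, followed in significance by the AP-1 gene Jun (1.01, SE 0.08), the osteoblast regulator Runx2 (1.13, SE 0.10) and Bambi (0.81, SE 0.08), a pseudoreceptor of TGF-β signalling. Runx2 also stands in the osteoblast marker list, in which 14 of 15 genes rose. Tnfrsf11b, the osteoprotegerin gene that osteoblasts express under β-catenin control, had 0.10, and Cd44 had 0.14, both without a call.

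**Figure D4:**
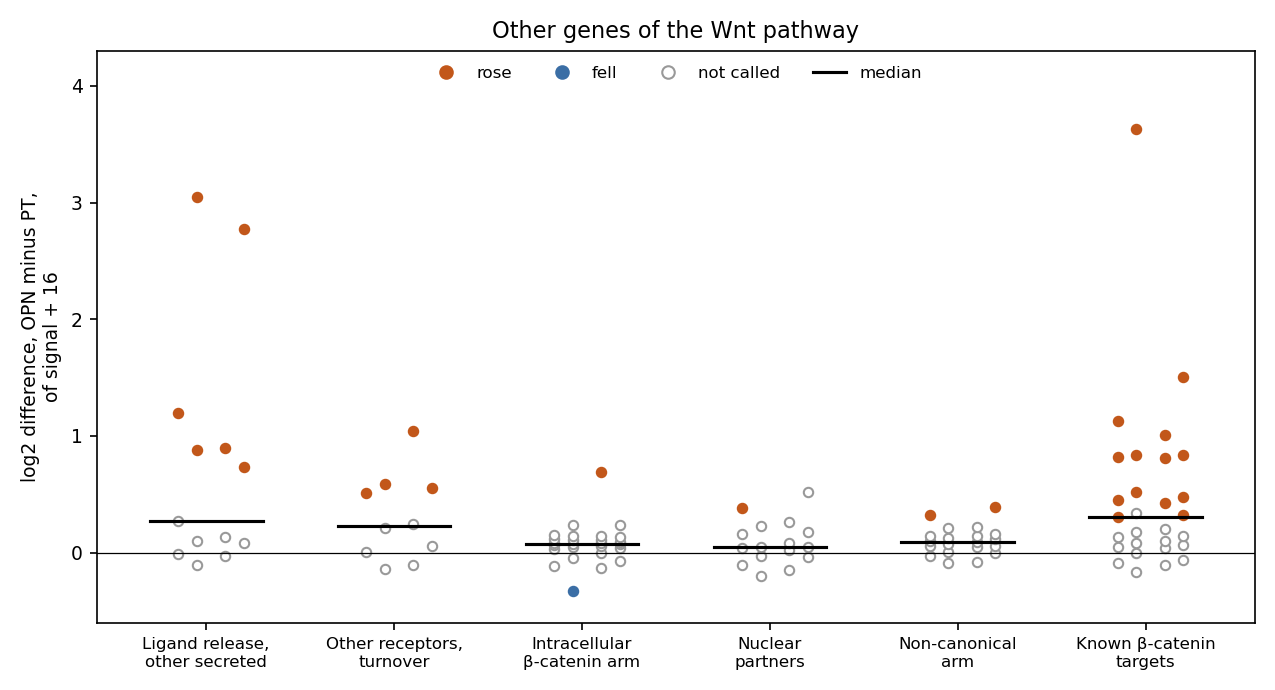
Differences of 114 measured genes in 6 further pathway lists: y axis, OPN minus PT on the scale log2(signal + 16); orange, rose; blue, fell; open grey, not called; black bar, median of the list. The secreted, receptor and target lists hold filled points well above 0, while the intracellular, nuclear and β-catenin-independent lists cluster at medians of 0.05 to 0.10.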

How the data were processed

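RNA of bone cells attached to PT (3 arrays) or OPN (3 arrays) was measured on Affymetrix Rat Gene 1.0 ST arrays from 300 ng of total RNA, without removal of ribosomal RNA, per the labels' protocols. The authors deposited a linear intensity for each probe set on each array, made with Affymetrix Expression Console and PLIER per the submitters' processing notes. For versions, background correction, scaling, filters and genome build: not given in the sources used here. Differing array medians show that the deposited probe set values were not forced to 1 distribution. They do not show whether probe intensities were scaled before the summary. Background in dim rows can pull their differences toward 0, which was not tested.

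Rows were named from the platform annotation (15310 of 29215 with 1 symbol, 323 with several, 13582 with none). All 50 members matched GRCr8 by Entrez identifier. Of the protein-coding genes of these families in GRCr8, 6 had no row annotated with their symbol and are not analysed here: Wnt7a, Wnt11, Fzd7, Fzd10, Lgr6 and Rspo4. For list genes with several rows the row with the highest mean was used. Values were transformed as log2(intensity + 16), and 1 linear model per row was fitted in R 4.3.3 (limma 3.58.1, lmFit and eBayes), without filter or block, after the test was checked on simulated arrays. Intervals are at 95%. Alternatives covered scaling, offset, a filter on dim rows, the variance prior, the reading of the rule, the replicate block and each array left out.

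The text names every called member, the highest and lowest member of each family, and up to 4 called genes per pathway list with the smallest p, and further members and genes for their known roles. Members and lists were chosen with earlier results of these data known.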

Additional observations from a re-analysis of the deposited data

How the results depend on the processing

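The count of members that rose, 10, became 10 with either scaling, either offset (1 or 64) and an intensity trend in the prior, 7 of 30 tested without the rows below the median row, 9 of 39 under the reading that allows no letter after the digits, and between 9 and 11 with any 1 array left out, while 0 fell in any of these. Each member has 1 row, so averaging rows changed no member. Over all 29215 rows, 1700 were called, 1475 of them higher and 225 lower. Leaving out 1 array gave between 1023 (without OPN replicate 3) and 1486 calls, between 928 and 1357 higher and between 95 and 181 lower, with 1080 calls without OPN replicate 2. Lower calls numbered 560 with equal medians, 745 with quantile normalisation, 382 with an offset of 64, 554 without dim rows and 508 with the intensity trend. The cause of these shifts was not tested.

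Both groups hold a replicate 2 and a replicate 4. Deviations of same-numbered arrays correlated at -0.08 and 0.07, and those of differently numbered arrays at between -0.11 and 0.18. With only 2 same-numbered pairs, these values cannot decide whether arrays of the same number share a preparation. With the replicate block, which rests on 2 pairs, 666 rows were called, 618 higher and 48 lower, and 6 members rose (Ctnnb1, Fzd8, Lgr4, Rspo3, Sfrp1 and Wif1), while Lrp5, Frzb, Tcf7 and Wnt5a were not called (adjusted p = 0.0796, 0.0770, 0.139 and 0.0649). With it, 7 of the 29 target genes and 1 of the 10 other receptors were called, and Btrc, Tle1, Prkca and Plcb4 were not.

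Of 680 values of single members under alternatives 40 changed sign, all in 16 members that were not called. With equal medians Dkk4 turned to -0.023, Wnt16 to -0.030, Ror1 to -0.013, Wnt7b to -0.059 and Fzd5 to -0.012. With quantile normalisation Axin1 turned to -0.0090, Dkk4 to -0.021, Wnt16 to -0.040, Ror1 to -0.019, Wnt7b to -0.070 and Fzd5 to -0.023. With the replicate block Dkk2 turned to 0.161, Rspo1 to 0.109, Wnt10a to 0.017 and Wnt7b to -0.036. With 1 array left out the range was -0.15 to 0.078 for Dkk2, -0.019 to 0.15 for Dkk4, -0.11 to 0.0097 for Lgr5, -0.034 to 0.14 for Ror1, -0.13 to 0.057 for Rspo1, -0.081 to 0.010 for Rspo2, -0.035 to 0.25 for Sfrp2, -0.065 to 0.014 for Wnt1, -0.065 to 0.049 for Wnt10a, -0.024 to 0.080 for Wnt16, -0.080 to 0.0029 for Wnt3, -0.082 to 0.13 for Wnt7b, -0.091 to 0.034 for Wnt8b and -0.058 to 0.014 for Wnt9b.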
